A study of Mus musculus with 2 samples.

Results

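The genes described here encode the cyclins, the cyclin-dependent kinases (CDKs), the CDK inhibitors of the Ink4 and Cip/Kip families, the retinoblastoma (pocket) proteins and the activating E2F factors. They were chosen by name: symbols made of Ccn, a letter and a number, of Cdk and a number, or of Cdkn, a digit and a letter from a to d, plus Rb1, Rbl1, Rbl2, E2f1, E2f2 and E2f3. This gave 47 of 23284 gene symbols. The rule itself uses no expression value, though it was set with earlier results of these data known. Expression was measured by RNA sequencing in cultures of 2 mouse melanoma lines of C57BL/6 origin, B16 (grown in DMEM) and B16/BL6 (an invasive subline of B16, grown in RPMI), both media with fetal bovine serum, penicillin and streptomycin. No treatment or engineered allele is named for either culture. The study was made to look for genes related to metastasis. Each line has 1 library, which leaves every value without a replicate error; no difference was tested, no p-value is given, and the line and its medium cannot be told apart.

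Cell division is driven by CDKs, which are active only when bound to a cyclin. D-type cyclins with Cdk4 or Cdk6 phosphorylate the pocket proteins, which releases E2F factors to switch on the genes of DNA replication. Cyclin E with Cdk2, cyclin A with Cdk2 or Cdk1, and cyclin B with Cdk1 then carry the cell through S phase and mitosis. Ink4 proteins bind Cdk4 and Cdk6, and Cip/Kip proteins bind assembled cyclin-CDK complexes. The locus that encodes the Ink4 protein p16Ink4a, called Cdkn2a, is a classical melanoma susceptibility locus and is often lost in this tumour.

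Values are FPKM, the fragments of a gene divided by its transcript length and by the library's depth, so levels can be compared between genes. The steps between low values put the B16/BL6 library at about 1.10 times the depth of the B16 library, and a rough estimate of the depths was 10.0 and 11.1 in units of 1e+06 fragments. On that estimate Cdk7, at 7.44 and 6.33 FPKM in B16 and B16/BL6, rested on about 148 and 140 fragments and Cdk4 on 6096 and 15748, if all came from the longest annotated transcript. Both libraries held the melanocytic genes Sox10 (308 and 262 FPKM) and Mlana (3789 and 6160 FPKM), and all 7 melanocytic markers were at 1 FPKM or more. Of 19 measured markers of fibroblasts, leukocytes, endothelium and keratinocytes, Lyz2 alone reached 1 FPKM (2.56 and 3.96 FPKM), with Ptprc at 0.0180 and 0.0814 FPKM and Cd3e at 0. The summed fibroblast markers were at 0.532 and 0.729 FPKM (Dcn, Lum, Col3a1 and Thy1 at 0), the leukocyte markers at 2.60 and 4.14, the endothelial ones at 0.0298 and 0, and the keratinocyte ones at 0 in both. The abundant control Actb stood at 1789 and 1747 FPKM.

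Of the 47 genes, 42 reached 1 FPKM in 1 library or both, and the 5 others were at or near 0 in both. Differences are given as log2(FPKM + 1) in B16/BL6 minus B16, a scale that understates the change of low genes. On it, Cdk4 and Cdk14, 2 of the 42, stood at least 2-fold above B16 in the B16/BL6 library, against 3.31% of all 10709 genes at this minimum. None of the 42 (0) was at least 2-fold lower, against 3.16% of all genes. Within 1.5-fold lay 34 of the 42, or 81.0%, and 82.1% of all genes. The median difference of the 42 was -0.05 and that of all genes 0.01. Above 0 were 19 of the 42 (45.2%, against 50.6% of all genes) and below 0 were 23 (against 49.4%). When each library was rescaled to the same sum (the TPM scale), 13 of the 42 and 3668 of the 10709 genes were above 0. In such bulk RNA, fewer cells with a transcript and less of it per cell cannot be told apart.

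**Figure D1:**
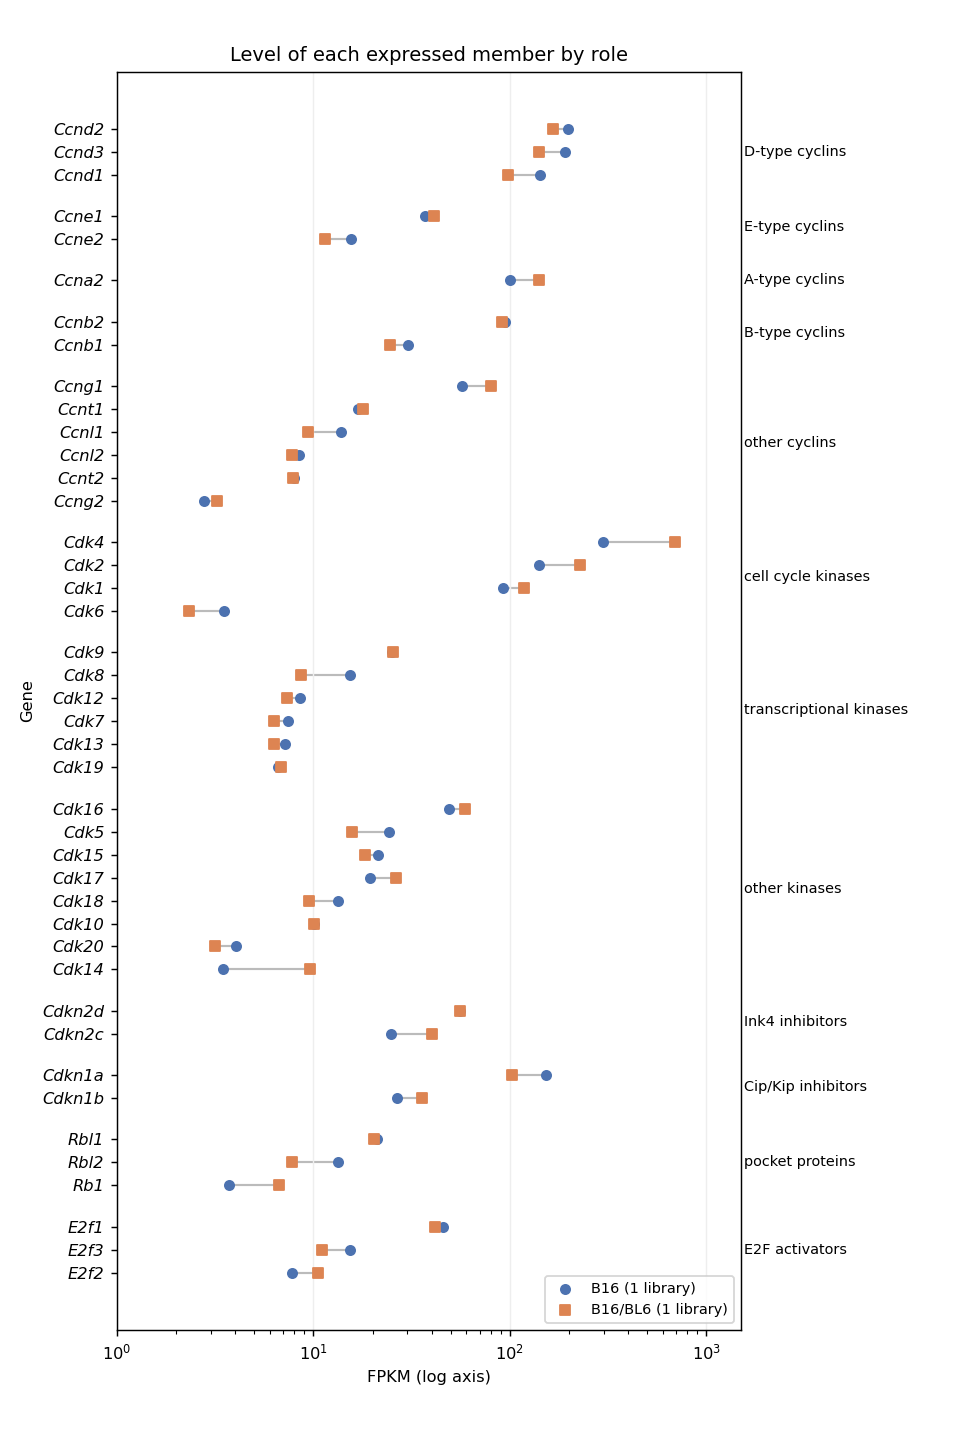
FPKM (log axis) of the 42 expressed genes, grouped by role and sorted by level in B16; a circle is the B16 library and a square the B16/BL6 library, with a grey line joining them. Cdk4 (296 and 689 FPKM) and Cdk14 (3.45 and 9.56 FPKM) have the longest lines to the right, and Cdk8 (15.3 and 8.63 FPKM) and Rbl2 (13.3 and 7.78 FPKM) the longest to the left.

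Among the 4 kinases that drive the cell cycle, Cdk4, Cdk2 and Cdk1 were abundant and higher in B16/BL6, and Cdk6 was low in both libraries. Cdk4, the partner of D-type cyclins in G1 (chromosome 10, 127063535 to 127067288, GRCm38 coordinates as below), was at 296 FPKM in B16 against 689 in B16/BL6. Its ratio was 2.33 and its log2 difference 1.22, and it ranked 201st of all symbols in B16 and 89th in B16/BL6. Cdk6, the other partner of D-type cyclins (chromosome 5, 3341004 to 3531008), was at 3.52 and 2.32 FPKM, a log2 difference of -0.45. Cdk4 thus held 98.8% of the FPKM of this pair in B16 and 99.7% in B16/BL6. Cdk2, the partner of cyclins E and A (chromosome 10, 128697938 to 128705051), was at 140.2 and 228 FPKM, with a ratio of 1.63 and a log2 difference of 0.70. Cdk1, the mitotic kinase (chromosome 10, 69335146 to 69352912), was at 92.0 and 117 FPKM, a log2 difference of 0.35 that became -0.06 when the median of its chromosome was subtracted.

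The start regions of Cdk4, Cdk2 and Cdk1 are shown because these kinases lie on the same chromosome and were all higher in B16/BL6. Each run is the 300 bases from 250 before to 50 after the RefSeq start (GRCm38.p6), 5′ to 3′ on the gene's strand. Capitals mark the letters searched for on both strands: TTTCCCGC, TTTCGCGC, TTTGCCGC or TTTGGCGC (the E2F motif), TTTGAA or TTCGAA (the CHR element of mitotic genes), CCAAT, and CACGTG (the E-box). No marked run overlaps another in these regions.
Cdk4 (chr10:127063285-127063584, plus strand): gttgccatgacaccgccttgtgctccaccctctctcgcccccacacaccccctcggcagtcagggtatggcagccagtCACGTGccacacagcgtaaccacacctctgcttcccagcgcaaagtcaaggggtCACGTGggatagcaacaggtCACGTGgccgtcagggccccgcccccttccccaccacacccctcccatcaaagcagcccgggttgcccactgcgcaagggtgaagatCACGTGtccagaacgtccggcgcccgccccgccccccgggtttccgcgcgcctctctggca
Cdk2 (chr10:128705002-128705301, minus strand): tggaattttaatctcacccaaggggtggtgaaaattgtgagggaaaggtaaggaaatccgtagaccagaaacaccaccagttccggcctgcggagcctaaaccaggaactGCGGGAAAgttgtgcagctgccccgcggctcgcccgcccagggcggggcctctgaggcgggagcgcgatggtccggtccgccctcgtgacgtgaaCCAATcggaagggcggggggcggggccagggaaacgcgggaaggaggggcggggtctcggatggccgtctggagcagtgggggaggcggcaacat
Cdk1 (chr10:69352863-69353162, minus strand): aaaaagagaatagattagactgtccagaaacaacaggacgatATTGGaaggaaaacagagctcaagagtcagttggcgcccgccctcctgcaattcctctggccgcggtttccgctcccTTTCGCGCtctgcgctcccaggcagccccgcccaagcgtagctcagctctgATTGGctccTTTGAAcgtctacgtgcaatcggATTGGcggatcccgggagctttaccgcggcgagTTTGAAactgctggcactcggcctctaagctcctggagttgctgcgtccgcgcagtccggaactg
The Cdk4 region held 4 E-boxes, the sequence bound by Myc and by Mitf among others, and none of the other motifs. Only 8 of 32851 start regions in the RefSeq table (0.0244%) held that many, and 4 of the 9978 regions of expressed genes (0.0401%). At least 1 was held by 7.15% of all regions and by 10.4% of those of expressed genes. Myc was at 70.7 and 96.6 FPKM and Mitf, the melanocyte master factor, at 97.1 and 90.7 FPKM. Whether either factor has a part in the level of Cdk4 was not tested. The Cdk1 region held 1 E2F motif, 2 CHR elements and 3 CCAAT boxes, and the Cdk2 region 1 E2F motif and 1 CCAAT box. Over all start regions, 2.26% held an E2F motif, 19.2% a CHR element and 37.4% a CCAAT box, and over those of expressed genes 4.16%, 13.4% and 38.2%. Among the 40 regions of expressed members in the table, 5 held an E2F motif (Cdk1, Cdk2, E2f2, E2f3 and Rbl1), 6 a CHR element, 18 a CCAAT box and 8 an E-box. For some members, among them E2f1 and Cdk12, the start used lies inside the gene, and the gene's outer end was not searched. A match is a run of letters and not a measured binding site.

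Position on the chromosome went with these differences. All 5 expressed members on chromosome 10 were above 0 in log2 difference, namely Cdk4, Cdk2, Cdk17 (0.43), Cdk1 and Cdk19 (0.04, but below 0 on the TPM scale and after upper-quartile scaling). This chromosome as a whole was higher in B16/BL6: the median of its 528 expressed genes was 0.41, and 83.3% of them were above 0. All 5 expressed members on chromosome 13 were below 0, namely E2f3 (-0.43), Ccnb1 (-0.30), Cdk20 (-0.28), Cdk7 (-0.20) and Cdk13 (-0.16). The median of the 376 expressed genes of chromosome 13 was -0.32, and 79.8% of them were below 0. With the chromosomes centred, Cdk1 and Cdk19 were below 0, Ccnb1, Cdk7, Cdk13 and Cdk20 above 0, and the others on these chromosomes kept their sign. Both counts of members were thus close to what all genes of these chromosomes showed.

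**Figure D2:**
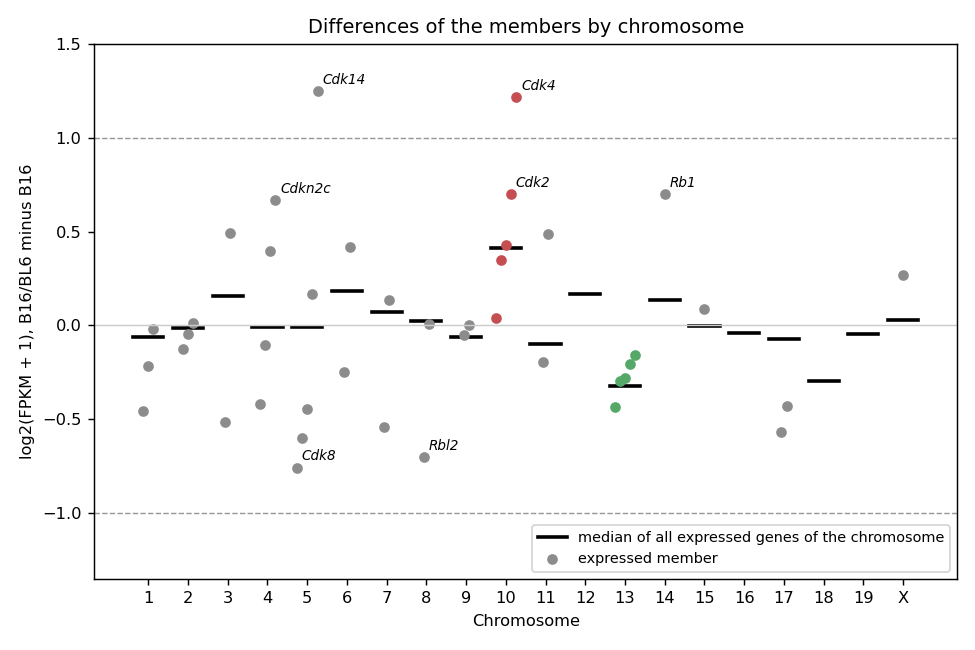
Each point is the log2 difference of an expressed member (log2(FPKM + 1), B16/BL6 minus B16) on its chromosome, and each black bar is the median over all expressed genes of that chromosome; dashed lines mark 2-fold. The red points of chromosome 10 run from 0.04 to 1.22 around a bar at 0.41 (Cdk19, the lowest, is below 0 on the TPM scale), and the green points of chromosome 13 from -0.43 to -0.16 around a bar at -0.32.

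Near Cdk4 the other genes were also higher. Of 26 expressed genes within 1 Mb of Cdk4, 24 were above 0, with a median of 0.72, so that Cdk4 stood 0.49 above its neighbours and 0.80 above its chromosome, short of 2-fold. Of 40 expressed genes within 1 Mb of Cdk2, 38 were above 0, with a median of 0.55, and Cdk2 stood 0.15 above them. The windows around Cdk4 and Cdk2 overlap. Cdk17, a kinase of the PCTAIRE group (19.4 and 26.4 FPKM), stood -0.22 from the median of its 9 neighbours, which was 0.64. Cdk19, far from these loci on the same chromosome, was at 6.63 and 6.84 FPKM and its 11 neighbours had a median of 0.00. On chromosome 13, the 11 neighbours of Cdk7 and Ccnb1, which share the same neighbourhood, had a median of -0.58 with 0 of 11 above 0. What part the chromosome or the neighbourhood has in any single value was not tested.

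**Figure D3:**
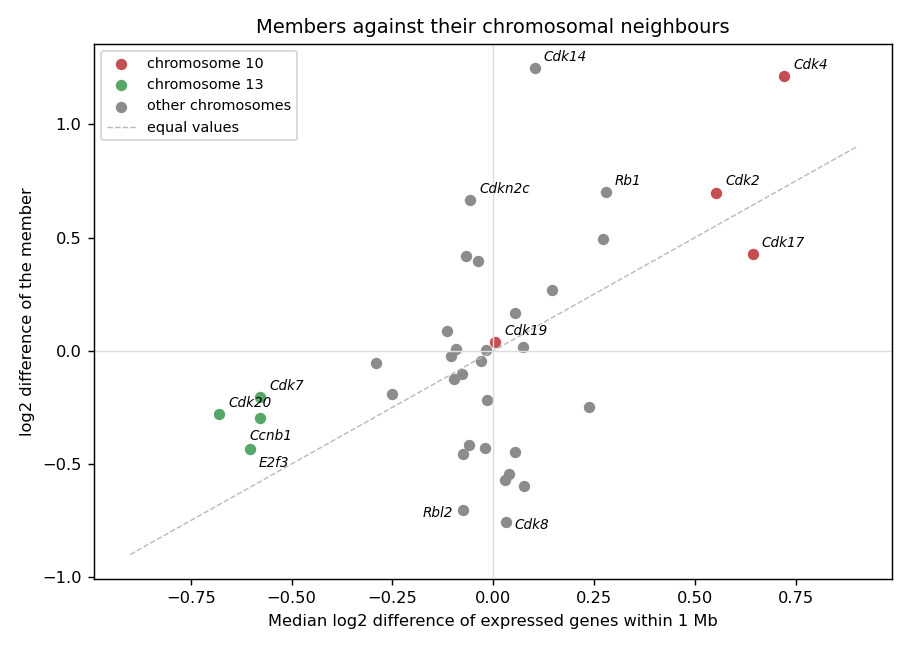
Log2 difference of each member (vertical) against the median log2 difference of the expressed genes within 1 Mb of it (horizontal), for the 37 members with at least 5 such neighbours; the dashed line marks equal values. Cdk4, Cdk2 and Cdk17 sit at the upper right and the chromosome 13 genes at the lower left, whereas Cdk14 (1.25 against 0.10) and Cdk8 (-0.76 against 0.03) lie far from the line.

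Across the 37 members with at least 5 expressed neighbours, the difference of the member and the median of its neighbours had a Pearson's r of 0.51 and a Spearman's rho of 0.37. These members share the same 2 libraries, and some share neighbours, so the values describe these libraries only. Without chromosome 10 the values were 0.29 and 0.20 over 33 members, and without chromosomes 10 and 13 they were 0.25 and 0.14 over 29. The sign of the member and of its neighbours was the same for 25 of 37, for 21 of 33 without chromosome 10 and for 17 of 29 without both.

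Cdk14 was the other kinase past 2-fold, and its neighbours differed far less. Cdk14, a membrane-tethered kinase that is activated by cyclin Y and acts in Wnt signalling (chromosome 5, 4803384 to 5380251), was at 3.45 FPKM in B16 against 9.56 in B16/BL6. This is a ratio of 2.77 and a log2 difference of 1.25, on roughly 178 and 548 fragments. With a pseudocount of 5 in place of 1 it fell short of 2-fold. Its 7 expressed neighbours had a median of 0.10, and its chromosome a median of -0.01. Cdk6, on the same chromosome but outside the 1 Mb used for neighbours, stood the other way, at -0.45. Ccny, which encodes cyclin Y, was at 28.9 and 20.6 FPKM. The start region of Cdk14 is shown beside that of Cdk4 because both genes were past 2-fold. It held 0 of the letters searched for, as did those of several other members, among them Ccne1 and Ccnt1:
Cdk14 (chr5:5380202-5380501, minus strand): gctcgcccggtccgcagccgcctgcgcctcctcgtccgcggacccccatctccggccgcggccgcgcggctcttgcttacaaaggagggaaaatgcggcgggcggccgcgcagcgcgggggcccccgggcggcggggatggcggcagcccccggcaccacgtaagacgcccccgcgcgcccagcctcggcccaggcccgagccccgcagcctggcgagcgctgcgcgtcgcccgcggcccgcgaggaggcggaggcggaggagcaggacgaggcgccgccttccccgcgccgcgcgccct

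The 6 kinases of transcription were at lower levels, and 5 of them differed by less than 1.5-fold between the libraries. Cdk9, the kinase of the elongation factor P-TEFb, was at 25.1 and 25.4 FPKM, and its cyclins Ccnt1 and Ccnt2 were at 16.8 and 17.9 FPKM and at 8.0 and 7.87 FPKM. Cdk7, the CDK-activating kinase and a subunit of TFIIH, was at 7.44 and 6.33 FPKM, and its partners outside the naming rule, Ccnh and Mnat1, were at 25.9 and 18.7 FPKM and at 11.6 and 14.4 FPKM. Cdk12 and Cdk13, which phosphorylate RNA polymerase II with cyclin K, were at 8.50 and 7.31 FPKM and at 7.18 and 6.33 FPKM. Cdk8, a kinase of the Mediator complex, had the lowest log2 difference of all members, -0.76, at 15.3 and 8.63 FPKM, a ratio of 0.565. Its paralogue Cdk19 stood at 0.04. On the TPM scale Cdk19 was at -0.12 against -0.95 for Cdk8, and with the chromosomes centred at -0.37 against -0.75. The share of Cdk8 in the FPKM of the pair was 69.7% in B16 and 55.8% in B16/BL6. Cdk8 shares a stretch of 1250 bases at 97.2% identity with a processed pseudogene, and the sources used here do not say how reads from such stretches were assigned.

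The remaining kinases lay within 2-fold. Cdk5, an atypical kinase best known in neurons, was at 24.2 and 15.7 FPKM (-0.60), and its activators were low, Cdk5r1 at 0.231 and 0.105 FPKM and Cdk5r2 at 1.05 and 2.76 FPKM (0.87). Cdk16 and Cdk18, of the PCTAIRE group with Cdk17, were at 48.9 and 59.1 FPKM and at 13.4 and 9.51 FPKM. Cdk15 was at 21.3 and 18.2 FPKM, Cdk10 at 10.1 and 10.1 FPKM, and Cdk20 at 4.03 and 3.14 FPKM.

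All 3 D-type cyclins, the growth-factor sensors of G1, were highly expressed and lower in B16/BL6, each within 1.5-fold before rescaling. Ccnd2 (chromosome 6, 127125162 to 127152188) was at 197 FPKM in B16 against 166 in B16/BL6, a log2 difference of -0.25. Ccnd3 (chromosome 17, 47505051 to 47599689) was at 191 and 141 FPKM (-0.43), and Ccnd1 (chromosome 7, 144929931 to 144939831) at 142 and 97.3 FPKM (-0.54). The order was the same in both libraries, with Ccnd2 at 37.2% and 41.0% of their summed FPKM and Ccnd1 at 26.8% and 24.1%. These signs held on the TPM scale, after upper-quartile scaling and with each chromosome centred. On the TPM scale Ccnd1 (-0.72) and Ccnd3 (-0.60) were past 1.5-fold. Ccnd1 was also past 1.5-fold after upper-quartile scaling (-0.60) and with its chromosome centred (-0.61). The sum of the 3 cyclins was 530 FPKM in B16 against 404 in B16/BL6, and set against Cdk4 it was 1.79 and 0.587. Cdk4 was thus above each single D-type cyclin in both libraries, below their sum in B16 and above it in B16/BL6.

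The cyclins of S phase and mitosis differed gene by gene. Ccne1, which starts S phase with Cdk2, was at 37.1 and 40.9 FPKM (0.14, but -0.03 on the TPM scale), and its paralogue Ccne2 at 15.6 and 11.4 FPKM (-0.42). Ccna2, the cyclin of S phase and G2 (chromosome 3, 36564865 to 36573038), was at 99.7 and 141 FPKM, a log2 difference of 0.49. The mitotic cyclins Ccnb1 and Ccnb2 were at 30.4 and 24.5 FPKM and at 94.6 and 91.1 FPKM. Ccna2 therefore made up 44.4% of the summed FPKM of Ccna2, Ccnb1 and Ccnb2 in B16 and 54.9% in B16/BL6. Ccnb1 has near-identical stretches of up to 1294 bases in 5 other annotated genes, so its level is uncertain. The germline cyclin gene Ccna1 was listed at 0 and 0.121 FPKM, and Ccnb3, a cyclin of meiosis, at 0 in both.

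The cyclins with other roles spanned a wide range of levels. Ccng1, a target of p53, was at 57.0 and 80.2 FPKM, a log2 difference of 0.48, although its 3 expressed neighbours on chromosome 11 were all below 0. Ccng2 was at 2.77 and 3.23 FPKM. The cyclins L, which act in RNA splicing, were at 13.9 and 9.41 FPKM for Ccnl1 (-0.52) and at 8.39 and 7.75 FPKM for Ccnl2.

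The genes Cdkn2a and Cdkn2b were listed at 0 FPKM in both libraries. Cdkn2a (chromosome 4, 89274473 to 89294619) encodes p16Ink4a and, from a separate first exon, p19Arf, which holds Mdm2 away from p53. Cdkn2b (chromosome 4, 89306289 to 89311032) encodes p15Ink4b. An exact 0 in such a file can be a failed estimate, and 40.2% of all 23284 symbols were listed at 0 in both libraries, so the value by itself does not show the state of the DNA. The files hold 1 value per symbol, so p16Ink4a and p19Arf transcripts could not be told apart. Neither gene overlaps another annotated gene or has a near-identical stretch in another transcript.

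The expressed genes near the locus, Mtap and Klhl9, lay on the same side of it, where most listed genes were also at 0. Mtap, the methylthioadenosine phosphorylase gene, ends 93.4 kb from Cdkn2a and was at 121 FPKM in B16 against 115 in B16/BL6. Klhl9, farther out on the same side, was at 23.9 and 24.8 FPKM. On the other side, the nearest listed gene, Dmrta1, starts 377 kb beyond Cdkn2b and was listed at 0 in both libraries. Zfp352, also at 0 in both, was the only other listed gene on that side within 1 Mb. Of the 41 listed genes that start within 1 Mb of Cdkn2a, Mtap and Klhl9 were the 2 at 1 FPKM or more, 35 were listed at 0 in both libraries, and the 4 others did not exceed 0.481 FPKM. Among those at 0 were all 17 genes that RefSeq names as interferons, which are usually silent in unstimulated cells. No DNA was measured, so the files give the transcript level at this locus and not its copy number.

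**Figure D4:**
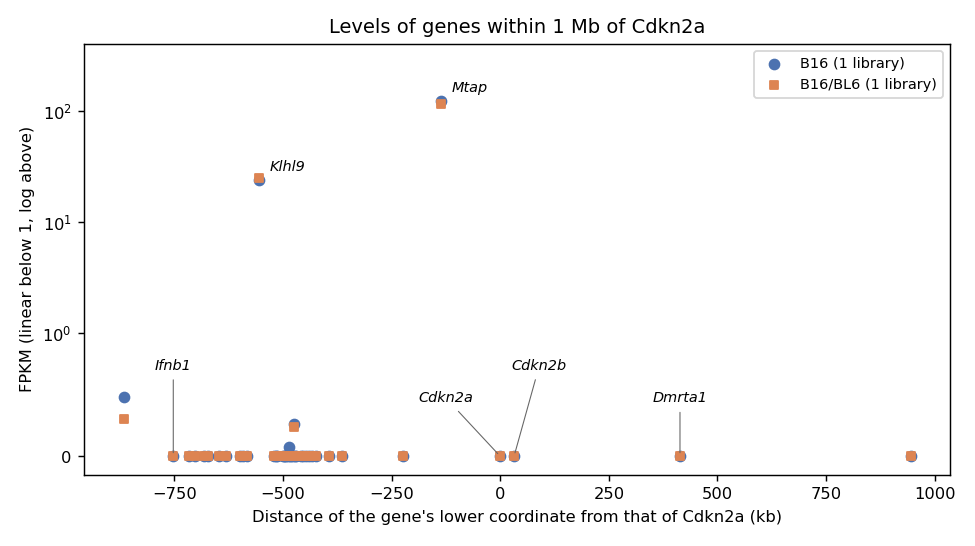
FPKM of the 41 listed genes within 1 Mb of Cdkn2a against the distance of each gene's lower coordinate from that of Cdkn2a, linear below 1 FPKM and logarithmic above; circles are B16 and squares B16/BL6. Mtap (121 and 115 FPKM) and Klhl9 (23.9 and 24.8 FPKM) stand out at the left, and Cdkn2a, Cdkn2b and Dmrta1 lie at 0 in both libraries.

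The start regions of the locus are shown because they mark the transcripts that were listed at 0. Cdkn2a has 2 of them in the RefSeq table, the upstream start of the p19Arf transcript and the downstream start of the p16Ink4a transcript, with capitals as above:
Cdkn2a, p19Arf start (chr4:89294570-89294869, minus strand): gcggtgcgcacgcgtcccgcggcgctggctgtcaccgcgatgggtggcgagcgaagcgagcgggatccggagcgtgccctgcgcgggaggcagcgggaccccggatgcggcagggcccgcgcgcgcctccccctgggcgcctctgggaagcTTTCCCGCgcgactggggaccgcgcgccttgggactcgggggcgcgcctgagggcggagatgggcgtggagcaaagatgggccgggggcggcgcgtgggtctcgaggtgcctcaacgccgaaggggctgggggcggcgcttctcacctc
Cdkn2a, p16Ink4a start (chr4:89282143-89282442, minus strand): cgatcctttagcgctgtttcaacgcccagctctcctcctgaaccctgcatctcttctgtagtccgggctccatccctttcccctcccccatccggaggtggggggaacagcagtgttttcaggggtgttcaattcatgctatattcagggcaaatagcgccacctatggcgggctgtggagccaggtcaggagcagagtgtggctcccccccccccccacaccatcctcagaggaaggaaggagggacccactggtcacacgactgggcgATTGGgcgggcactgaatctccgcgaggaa
Cdkn2b (chr4:89310983-89311282, minus strand): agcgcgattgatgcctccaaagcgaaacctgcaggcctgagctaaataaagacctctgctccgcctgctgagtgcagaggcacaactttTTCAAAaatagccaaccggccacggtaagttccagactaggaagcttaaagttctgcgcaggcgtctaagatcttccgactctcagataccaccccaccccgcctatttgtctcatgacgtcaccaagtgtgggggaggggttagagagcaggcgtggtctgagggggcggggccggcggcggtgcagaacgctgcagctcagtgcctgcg
The p19Arf region held 1 E2F motif, the p16Ink4a region 1 CCAAT box, and the Cdkn2b region 1 CHR element.

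The other Ink4 genes were expressed in both libraries. Cdkn2c, which encodes p18Ink4c (chromosome 4, 109660876 to 109666756), was at 24.9 FPKM in B16 against 40.1 in B16/BL6, a log2 difference of 0.67 with a ratio of 1.61. Its 11 expressed neighbours had a median of -0.06. Cdkn2d, which encodes p19Ink4d, was at 55.6 and 55.8 FPKM. Summed, the Ink4 genes stood at 0.272 of the level of Cdk4 in B16 and 0.139 in B16/BL6.

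The Cip/Kip genes stood in opposite directions. Cdkn1a, which encodes p21, the p53-induced inhibitor (chromosome 17, 29090979 to 29100722), was at 153 FPKM in B16 against 103 in B16/BL6 (-0.57). Cdkn1b, which encodes p27 (chromosome 6, 134920401 to 134925525), was at 26.5 and 35.7 FPKM (0.42). Cdkn1a was therefore 5.79 times the level of Cdkn1b in B16 and 2.88 times in B16/BL6, and it stood at 1.09 and 0.451 of the level of Cdk2. Cdkn1c, the imprinted gene of p57, was listed at 0 and 0.0968 FPKM. The p53 gene Trp53 was at 114 and 98.4 FPKM and its ubiquitin ligase gene Mdm2 at 28.3 and 38.2 FPKM. Mdm2 lies on chromosome 10, and its log2 difference of 0.42 became 0.01 with that chromosome centred.

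Among the pocket proteins, Rb1 and Rbl2 differed in opposite directions, and Rbl1 hardly differed. Rb1, the retinoblastoma gene (chromosome 14, 73192858 to 73325951), was the least abundant of the 3, at 3.73 FPKM in B16 against 6.69 in B16/BL6. Its ratio was 1.79 and its log2 difference 0.70, on roughly 174 and 347 fragments. All 6 of its expressed neighbours were also above 0, with a median of 0.28. Rbl2, which encodes p130, the pocket protein of resting cells (chromosome 8, 91070057 to 91123844), was at 13.3 and 7.78 FPKM (-0.70). Rbl1, which encodes p107, was at 20.9 and 20.3 FPKM. The share of Rb1 in their summed FPKM was 9.83% in B16 and 19.3% in B16/BL6, and that of Rbl2 35.0% and 22.4%.

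The activating E2F genes kept their order of abundance. E2f1 was the highest of the 3 in both libraries, at 45.6 and 41.7 FPKM. E2f3 stood above E2f2 in each, at 15.3 and 11.1 FPKM against 7.74 and 10.5 FPKM, though closely in B16/BL6. Their log2 differences were -0.13 for E2f1, 0.40 for E2f2 and -0.43 for E2f3. E2f3 lies on chromosome 13 and was -0.11 with that chromosome centred.

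Genes around this machinery were followed in 8 lists. Of 162 listed genes 154 reached 1 FPKM in a library. Of these, 1 was past 2-fold upward in B16/BL6 (against 3.31% of all genes) and 2 downward (against 3.16%). The higher gene was Cables1, a CDK-binding adaptor (0.326 and 2.39 FPKM), and the lower ones were Fbxo31, which encodes a ubiquitin ligase subunit that targets cyclin D1 (5.55 and 1.84 FPKM), and Ell2, an elongation factor gene (2.0 and 0.119 FPKM). Cables1 and Ell2 were named after their values were seen. Differences above 0 were found for 82 of the 154 (53.2%, against 50.6% of all genes).

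The replication targets of E2F and the mitotic genes all lay within 2-fold. The 30 replication genes had a median log2 difference of 0.06 (-0.11 on the TPM scale), with 18 above 0 (9 on the TPM scale) and 0 past 2-fold in either direction. Their farthest members were Gins2, of the replicative helicase (22.2 and 39.3 FPKM), Rrm2, of ribonucleotide reductase (250.03 and 361 FPKM), and Mcm5, of the helicase ring (98.7 and 134 FPKM). The 30 mitotic genes had a median of -0.07 (-0.24 on the TPM scale, 0.02 with the chromosomes centred), with 13 above 0 (8 on the TPM scale) and 0 past 2-fold. Anln, which encodes anillin of the cleavage furrow, was at 72.6 and 43.0 FPKM, and the mitotic kinesins Cenpe and Kif23 were at 12.5 and 17.5 FPKM and at 25.3 and 35.0 FPKM. The 15 other E2F, DP and MuvB genes had a median of 0.11 (-0.06 on the TPM scale), 9 of them above 0. They included the atypical repressors E2f8 (15.8 and 22.8 FPKM) and E2f7 (5.86 and 8.07 FPKM), and E2f5 (8.40 and 12.2 FPKM). E2f7 lies on chromosome 10, and its log2 difference of 0.40 became -0.01 with that chromosome centred.

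The regulators of CDK activity, of turnover and of mitogen input follow. The 15 activators, phosphatases and adaptors at 1 FPKM or more in a library had a median of 0.10 (-0.07 on the TPM scale), 8 of them above 0. Pkmyt1, an inhibitory kinase of Cdk1, was at 20.3 and 13.3 FPKM, the phosphatase gene Cdkn3 at 27.1 and 34.7 FPKM, and the activating phosphatase gene Cdc25a at 43.2 and 41.4 FPKM. The 22 ubiquitin ligase genes had a median of 0.03 (-0.14 on the TPM scale), 13 of them above 0. Skp1a, the adaptor of SCF ligases, was at 158 and 267 FPKM, Fzr1, the G1 activator of the anaphase-promoting complex, at 41.3 and 61.9 FPKM, and Skp2, which targets p27, at 20.5 and 22.3 FPKM. Fzr1 lies on chromosome 10, and its log2 difference of 0.57 became 0.16 with that chromosome centred. The 11 cyclins and cyclin-like genes outside the naming rule at this minimum had a median of 0.18 (0.03 on the TPM scale). Above 0 were 8 of them (6 on the TPM scale), with Ccni at 49.2 and 73.6 FPKM and Ccnk at 42.3 and 59.5 FPKM. The 15 mitogen and p53 inputs at this minimum had a median of -0.15 (-0.32 on the TPM scale), with Foxo1 at 3.71 and 6.02 FPKM. Bmi1, a Polycomb repressor of the Cdkn2a locus, was at 41.6 and 59.2 FPKM. The Polycomb genes Cbx7 and Cbx8 of the same list stood the other way, at 4.35 and 2.87 FPKM and at 15.9 and 13.3 FPKM. The 16 measured partners of the transcription kinases had a median of -0.16 (-0.33 on the TPM scale), with Hexim1, the inhibitor of P-TEFb, at 20.9 and 16.2 FPKM and the Mediator kinase module genes Med13 and Med13l at 9.85 and 13.5 FPKM and at 5.07 and 6.78 FPKM.

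Some of these values rest on reads that could belong to more than a single gene. On the opposite strand, Tspan31 shares 641 of the 3249 annotated exonic bases of Cdk4 (19.7%), and Tspan31 was at 74.4 and 132 FPKM. Pmel, at 2166 and 4651 FPKM, shares 34 exonic bases with Cdk2, 0.547% of those of Cdk2. Rcbtb2, at 8.75 and 16.6 FPKM, shares 8.11% of the exonic bases of Rb1. Opposite-strand genes also share 23.4% of the exonic bases of Ccnd1 (LTO1), 17.4% of those of Ccne2 (Ints8, at 13.9 and 16.9 FPKM), 12.5% of those of Ccna2 (Exosc9, at 31.8 and 40.8 FPKM), and 11.8% and 9.17% of those of Rbl2 (Gm45464, and Aktip at 11.2 and 12.1 FPKM). The library kit keeps the strand, but the sources used here do not say whether strand was used in making the values. Near-identical stretches of at least 300 bases at 95% identity in other genes were found for 5 members: Ccnb1 and Cdk8, given above, Ccnd3 (881 bases), Cdk10 (617 bases) and Cdk12 (357 bases). How far such stretches moved these values was not tested. For scale, Gapdh, with such stretches in 103 other genes, was listed at 0.531 and 0.561 FPKM.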

How the data were processed

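RNA sequencing libraries of B16 and B16/BL6 cells were made from total RNA with a stranded mRNA kit, per the labels' protocols. The deposited values are FPKM, 1 per gene symbol, per the file headers. Per the submitters' processing notes, the authors used Cufflinks 2.2.1, TopHat2 2.0.13, SAMtools 0.1.19 and Bowtie2 2.2.3 with the mm10 build; the sources used here do not state the annotation, the settings or the number of reads. FPKM is not a count and there was 1 library per line, so no test was run.

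Genes that reached 1 FPKM in 1 library or both were compared as log2(FPKM + 1), with 2-fold as the limit. Positions came from RefSeq (GRCm38.p6), which placed 10642 of the 10709 expressed symbols; neighbours are expressed non-member genes whose lower coordinates lie within 1 Mb. Exon overlaps, and near-identical stretches (BLAST 2.17.0), used GENCODE M21. RefSeq start regions were available for 38 of 47 members. Among 379 genes under 0.1 FPKM in both libraries, 150 had the ratio 0.906 of B16/BL6 to B16, which gives the relative depth. The rough depth is the median over the fullest 0.5-log2 window of estimates from single-transcript genes under 0.2 FPKM and over 1500 bases (80 genes in B16, 72 in B16/BL6), taking each as 1 fragment. Its absolute value is approximate, so no interval was derived.

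The members and lists were chosen with earlier results of these data known. All expressed members were named. From each list, the 3 genes at 5 FPKM or more with the largest differences were named by rule. Further genes (Mitf, Ccnh, Cdk5r1, Cdk5r2, Trp53, Mdm2, Cdc25a, Skp2, Tspan31, Pmel, Rcbtb2, Ints8, Exosc9, Aktip, Tbx2, Tbx3, Cbx7, Cbx8, Mir2861) were named for their tie to a member. Sox10, Mlana, Lyz2, Ptprc, Cd3e, Dcn, Lum, Col3a1 and Thy1 were named as cell type markers. The procedure was tested on simulated data. Alternatives were pseudocounts of 0.1 and 5, no minimum and a minimum of 5 FPKM, scaling the FPKM of a library to sum to 1000000 (the TPM scale), upper-quartile scaling, and subtracting the median of each chromosome.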

Additional observations from a re-analysis of the deposited data

How the results depend on the processing

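Of the 2 genes at least 2-fold higher, 1 stayed past 2-fold with a pseudocount of 5 (Cdk4) and 1 with each chromosome centred (Cdk14); both did under the other 5 alternatives, and 0 members were at least 2-fold lower under all 7. Rescaling to the TPM scale moved the median of all genes from 0.01 to -0.16 and that of the members from -0.05 to -0.22. Of the 42 expressed members, 29 kept their sign under all 3 scalings; 6 changed it on the TPM scale (Ccne1, Ccnt1, Cdk9, Cdk10, Cdk19 and Cdkn2d), 4 of them also after upper-quartile scaling, and 9 with each chromosome centred, among them Cdk1, Cdk7 and Ccnb1. No paired analysis was possible because each line has 1 library. On the rough depth and the longest annotated transcripts, Ccng2, Cdk7, Cdk20, Rb1 and Cdk14 rest on the fewest fragments in B16 among the expressed members (126 to 178). This order depends on the transcript lengths taken. How far the values of these genes would vary between cultures is not known from these data.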

Other observations

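Mir2861, a microRNA symbol that shares 82 exonic bases with Cdk9, was listed at 1035 FPKM in B16 and at 0 in B16/BL6, while Cdk9 itself was at 25.1 and 25.4 FPKM. Dividing by a very short transcript length can make a value unstable, and whether it did so here was not tested. Among the regulators of the Cdkn2a locus, the T-box repressor gene Tbx2 was at 33.8 and 30.3 FPKM and Tbx3 was listed at 0 in both libraries.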
